A study of Mus musculus with 8 samples.

Results

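The 8 genes of the m6A writer complex, Mettl3, Mettl14, Wtap, Virma, Zc3h13, Cbll1, Rbm15 and Rbm15b, were followed in nuclear RNA of mouse embryonic stem cells. They were chosen by name, as the rows whose Ensembl gene ID maps to these symbols. All 8 were found among the 54446 genes of the count tables, and all 8 were among the 21782 genes that passed the filter on low counts and were tested. The study asked how nuclear RNA changes when Mettl3 or Mettl14 is knocked out, and its title sets METTL14 apart from the m6A mark. Each of the 4 groups had 2 libraries: a Mettl14 line with its control and its conditional knockout (CKO in the labels, cKO in what follows), and a Mettl3 line with the same pair. All 4 groups were embryonic stem cells of the C57BL/6 strain, grown in serum with LIF at 1000 U/ml, the GSK3 inhibitor CHIR99021 at 3 µM and the MEK inhibitor PD0325901 at 1 µM. The sources used here do not give the Cre driver, the exons removed, the time after deletion or whether a line is a single clone. They also do not say that replicates were separate cultures, so the p-values reflect the spread between the deposited samples, which may be technical only.

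The writer complex places N6-methyladenosine (m6A) on nascent RNA in the nucleus. METTL3 holds the catalytic site and METTL14 binds it and the RNA substrate; a set of regulatory subunits, WTAP, VIRMA, ZC3H13, CBLL1 and the RBM15 paralogs, places the pair in nuclear speckles and guides it to its targets. In embryonic stem cells m6A is known to shorten the life of many transcripts of pluripotency factors.

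Levels are given in CPM, counts scaled to a common library total after TMM, a method that assumes most genes are alike between libraries. Total counts ran from 17235889 to 20086128 per library, and each writer gene had between 320 and 6608 counts in every library. All 10 embryonic stem cell markers were at 1 CPM or more in every group, and their summed level was 2740 to 2751 CPM in Mettl14 control, 1978 to 1997 in Mettl14 cKO, 1092 to 1109 in Mettl3 control and 1036 to 1054 in Mettl3 cKO. The 21 fibroblast or feeder cell markers summed to 1324 to 1341 CPM in Mettl14 control, 2917 to 2926 in Mettl14 cKO, 9396 to 9679 in Mettl3 control and 11029 to 11130 in Mettl3 cKO; 17, 19, 20 and 20 of them were at 1 CPM or more in these groups, in the same order, and none was at 0. Of 13 primitive endoderm markers, 10 or 11 reached 1 CPM in each group, and Amn was at 0 in Mettl14 control. Their sums ran from 1207 CPM in a Mettl14 control library to 3103 in a Mettl3 cKO library. The sums follow a few abundant genes, with Sparc alone at 684 CPM in Mettl14 control and 1626 in Mettl3 cKO. Group means of Gata4, Gata6 and Pdgfra lay between 2.44 and 7.51 CPM, and those of Sox17 between 0.506 and 1.02. Dab2 ran from 9.34 to 36.5 CPM and Cubn from 3.92 to 10.2. Col1a1, a fibrillar collagen gene of fibroblasts, stood at 270 CPM in Mettl14 control and 2707 CPM in Mettl3 control. The part of these marker differences in the results on the writer genes was not tested. In bulk samples, fewer cells of a type and less RNA per cell cannot be told apart.

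Mettl14 was not alone in its pattern over the 4 groups. Mettl14, Zc3h13 and Cbll1 were highest in Mettl14 control, and each was at 48.6% to 60.0% of that level in the other 3 groups. Mettl3 was lowest in Mettl3 cKO. Wtap, Virma, Rbm15 and Rbm15b had their lowest means in Mettl3 control, and their log2 changes in either knockout lay between -0.08 and 0.26.

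**Figure D1:**
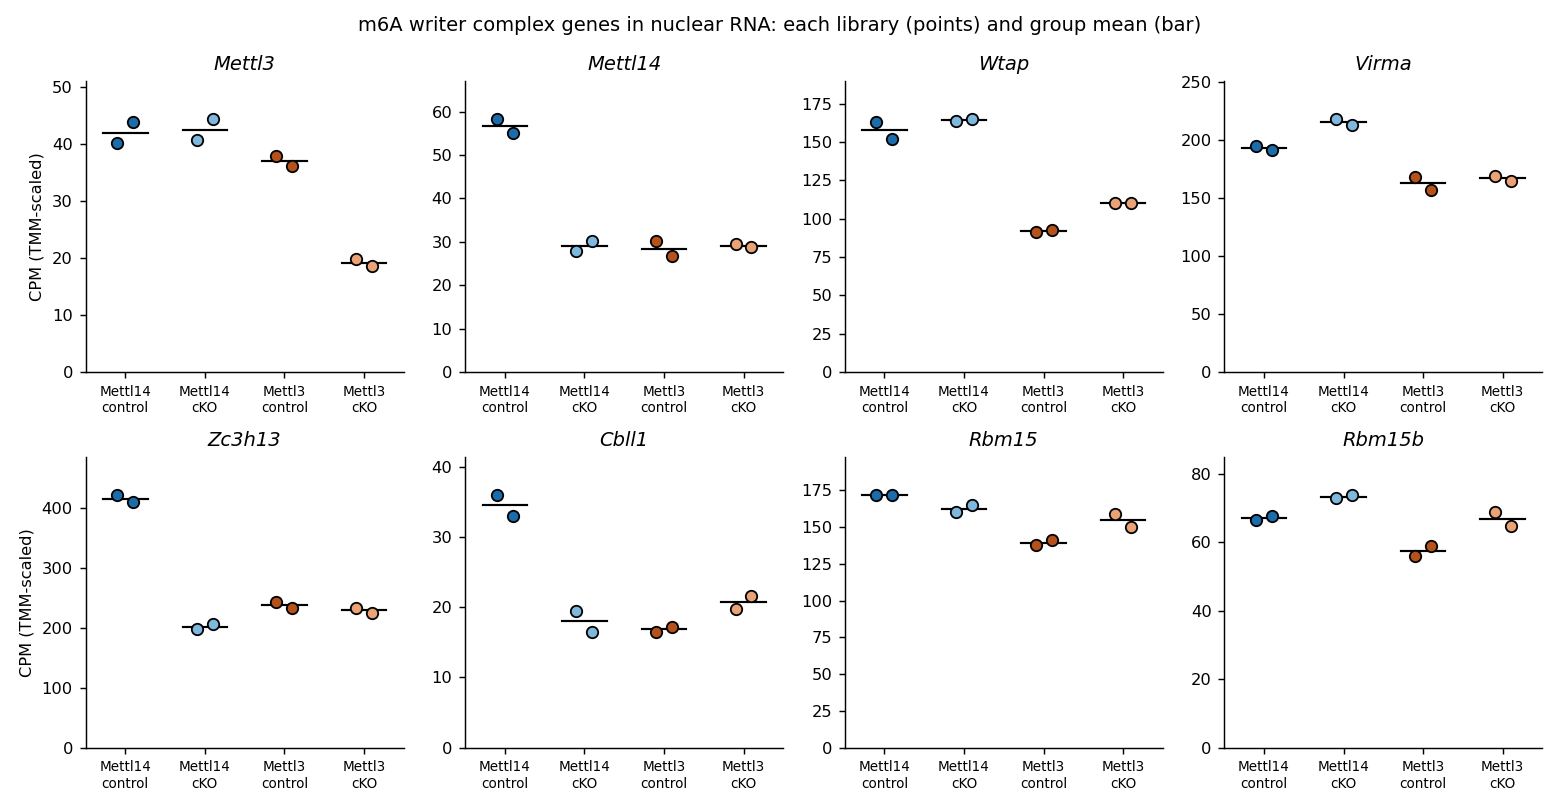
CPM (TMM-scaled, linear axis from 0) of each writer gene in the 4 groups; points are the 2 libraries of a group and bars their mean. Mettl14, Zc3h13 and Cbll1 are highest in Mettl14 control, with Mettl14 at 58.3 and 55.0 CPM there and between 26.7 and 30.2 CPM in every other library.

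The bases upstream are shown for Zc3h13, Cbll1 and Mettl3, the only writer genes for which an upstream window was obtained. These genes are therefore not a set chosen by pattern. None is shown for Mettl14, Wtap, Virma, Rbm15 or Rbm15b, so the patterns are not compared by their upstream letters. The sequences are from RefSeq on build GRCm38.p6, the mm10 assembly, and end just before the start of transcription given there or, for Mettl3, the annotated start of the gene, which leaves 246 bases. They lie at chr14:75284116-75284365 on the plus strand for Zc3h13, chr12:31499617-31499866 on the minus strand for Cbll1 and chr14:52305129-52305374 on the minus strand for Mettl3, and each is printed 5′ to 3′ on the strand of its gene. Capitals mark the GC box GGGCGG, a sequence that SP1 and KLF factors bind, searched on both strands.
Zc3h13 upstream: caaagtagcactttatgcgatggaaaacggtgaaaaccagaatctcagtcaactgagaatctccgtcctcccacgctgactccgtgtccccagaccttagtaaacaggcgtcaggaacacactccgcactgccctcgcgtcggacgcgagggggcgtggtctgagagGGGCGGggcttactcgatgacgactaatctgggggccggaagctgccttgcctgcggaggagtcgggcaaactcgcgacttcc
Cbll1 upstream: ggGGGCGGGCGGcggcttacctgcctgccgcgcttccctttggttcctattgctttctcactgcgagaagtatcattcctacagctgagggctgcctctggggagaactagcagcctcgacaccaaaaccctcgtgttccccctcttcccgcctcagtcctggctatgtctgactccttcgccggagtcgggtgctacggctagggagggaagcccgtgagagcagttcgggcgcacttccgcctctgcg
Mettl3 upstream: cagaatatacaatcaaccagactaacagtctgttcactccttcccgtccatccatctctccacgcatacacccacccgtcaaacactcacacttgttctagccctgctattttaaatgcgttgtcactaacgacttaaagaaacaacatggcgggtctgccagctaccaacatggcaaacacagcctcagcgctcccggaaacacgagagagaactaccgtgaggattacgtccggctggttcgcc
Zc3h13 held 1 GC box and Cbll1 held 2 that overlap, while Mettl3 held 0; 32.7% of all 32851 upstream windows of 250 bases held at least 1. These windows held none of the other motifs searched on both strands, which were CCAAT (in 33.8% of all windows), CCGGAAGT (2.88%), CACGTG (6.02%) and TATAAA (12.4%). Their GC content was 59.2% for Zc3h13, 62.8% for Cbll1 and 50.4% for Mettl3, with a median of 52.4% over all windows. A match of letters describes these windows only and is not a measured site.

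Mettl14 (ENSMUSG00000028114.16) lies on chromosome 3, 123368297 to 123386108 of mm10, on the minus strand, and encodes the RNA-binding partner of METTL3. In the Mettl14 line it stood at 58.3 and 55.0 CPM in the control libraries and at 27.8 and 30.2 CPM in the cKO libraries. In the Mettl3 line the control libraries had 30.1 and 26.7 CPM and the cKO libraries 29.6 and 28.7 CPM. Both Mettl14 control libraries were above all 6 others, which overlapped one another. The mean in Mettl14 cKO was 51.2% of its control, 29.0 ± 1.72 against 56.6 ± 2.34 CPM (SD, n = 2). The fitted log2 fold change was -0.96 ± 0.07 (SE, adjusted p = 1.23e-26), and it kept its sign and call under all 16 alternatives with a test, from -1.04 to -0.76. Whole-gene counts do not show which exons the remaining reads came from. In Mettl3 control, where Mettl14 is not the targeted gene, it was at 50.2% of the Mettl14 control level. Its level in Mettl14 cKO was not called different from that in Mettl3 control (0.03 on the log2 scale, 95% interval -0.11 to 0.18, adjusted p = 0.734) or in Mettl3 cKO (-0.01, interval -0.15 to 0.14, adjusted p = 0.952); with no scaling beyond the library total both differences were called, at -0.22 (adjusted p = 0.0075) and -0.17 (adjusted p = 0.0431). Mettl3 cKO differed from its own control by 0.04 ± 0.07 (interval -0.11 to 0.18, adjusted p = 0.78) and was not called.

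Mettl3 (ENSMUSG00000022160.18), the catalytic subunit gene, lies on chromosome 14, 52294841 to 52305128, on the minus strand. Its levels in the Mettl14 line were 40.2 and 43.8 CPM in control and 40.7 and 44.4 CPM in cKO. In the Mettl3 line they were 37.9 and 36.1 CPM in control and 19.8 and 18.6 CPM in cKO. Both Mettl3 cKO libraries were below all 6 others, and the Mettl14 control and Mettl14 cKO libraries overlapped. Mettl3 cKO was at 51.9% of its control, a log2 fold change of -0.95 ± 0.08 (adjusted p = 1.21e-21), which ranged from -1.06 to -0.84 over the 16 alternatives with a test. Mettl14 cKO left Mettl3 at 42.6 ± 2.57 CPM against 42.0 ± 2.52, a difference of 0.02 ± 0.07 that was not called (interval -0.11 to 0.15, adjusted p = 0.836); with no scaling beyond the library total it was called at 0.23 (adjusted p = 0.0034). Each targeted gene was lower in its own knockout. The 3' end of Mettl3 overlaps Tox4 on the opposite strand, over 933 exon bases or 18.4% of the merged exons of Mettl3, and since no source states the strand setting of the counting, reads there cannot be assigned with certainty. Tox4 had means of 56.7 and 65.2 CPM in control and cKO of the Mettl14 line and 56.8 and 57.7 CPM in those of the Mettl3 line, and in Mettl3 cKO it differed from control by 0.02 ± 0.05 (adjusted p = 0.809). In Mettl14 cKO Tox4 rose by 0.20 ± 0.05 (adjusted p = 0.00123), but leaving out Mettl14 control replicate 1 ended that call (0.15, adjusted p = 0.0983), as did DESeq2 (0.17, adjusted p = 0.0559).

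Zc3h13 (ENSMUSG00000022000.11; chromosome 14, 75284373 to 75344426, plus strand) encodes the zinc finger subunit that holds the complex in the nucleus of mouse embryonic stem cells. The Mettl14 line had 423 and 410 CPM in control and 198 and 207 CPM in cKO. The Mettl3 line had 243 and 233 CPM in control and 233 and 226 CPM in cKO. Mettl14 control stood above every other library, and Mettl14 cKO stood below every other library. Zc3h13 fell in Mettl14 cKO to 48.6% of control, by a log2 change of -1.04 ± 0.03 (adjusted p = 3.95e-64; -1.08 to -0.84 over the 16 alternatives with a test). Set against the 500 genes nearest in GC content the change was -1.12 relative to their median, and against the 500 nearest in abundance it was -0.85. In Mettl3 cKO it was at 96.5% of control, -0.05 ± 0.03 (interval -0.11 to 0.01, adjusted p = 0.256), and was called only with upper-quartile scaling (-0.16, adjusted p = 1.18e-05) or none (-0.14, adjusted p = 0.000226). Mettl14 cKO was below Mettl3 control (log2 difference -0.23, adjusted p = 7.54e-11) and below Mettl3 cKO by a smaller amount (-0.18, adjusted p = 2.74e-07).

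Cbll1 (ENSMUSG00000020659.16; chromosome 12, 31484829 to 31499616, minus strand) encodes HAKAI, a RING-type ubiquitin ligase that is a stable part of the complex. It had the lowest CPM of the 8 genes in Mettl14 control, with 36.0 and 33.0 CPM there and 19.5 and 16.5 CPM in the cKO of that line. The Mettl3 line had 16.5 and 17.2 CPM in control and 19.8 and 21.6 CPM in cKO. Mettl14 control was again above every other library. Cbll1 fell in Mettl14 cKO to 52.3% of control (-0.94 ± 0.09, adjusted p = 1.35e-18; -1.06 to -0.73 over the 16 alternatives with a test). In Mettl3 cKO it rose to 123% of control (0.30 ± 0.09, adjusted p = 0.0113), with no overlap between the groups; the call did not hold when Mettl3 cKO replicate 2 was left out (0.28, adjusted p = 0.0676), with DESeq2 (0.28, adjusted p = 0.112) and with upper-quartile scaling (0.18, adjusted p = 0.164) or none (0.21, adjusted p = 0.0981). Mettl14 cKO was not called different from Mettl3 control (0.09, interval -0.09 to 0.28, adjusted p = 0.398), but the difference ran from -0.15 to 0.26 over 15 alternatives. It was called with no filter on low counts (0.23, adjusted p = 0.046), and was 0.26 without Mettl14 cKO replicate 2 and 0.02 without Mettl14 cKO replicate 1, neither of which was called. Against Mettl3 cKO the difference was -0.20 (interval -0.38 to -0.02, adjusted p = 0.0544). It was called in 6 of 15 alternatives: without Mettl14 cKO replicate 1 (-0.31, adjusted p = 0.0153), without Mettl3 cKO replicate 1 (-0.26, adjusted p = 0.0422), without Mettl3 control replicate 1 (-0.20, adjusted p = 0.05 after rounding), with no scaling (-0.37, adjusted p = 0.000327), with upper-quartile scaling (-0.26, adjusted p = 0.0108) and with limma-voom (-0.21, adjusted p = 0.049). Without Mettl14 cKO replicate 2 it was -0.07 (adjusted p = 0.683). An antisense gene, Gm29542, covers 17.6% of the Cbll1 exons and had at most 5 counts in a library.

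**Figure D2:**
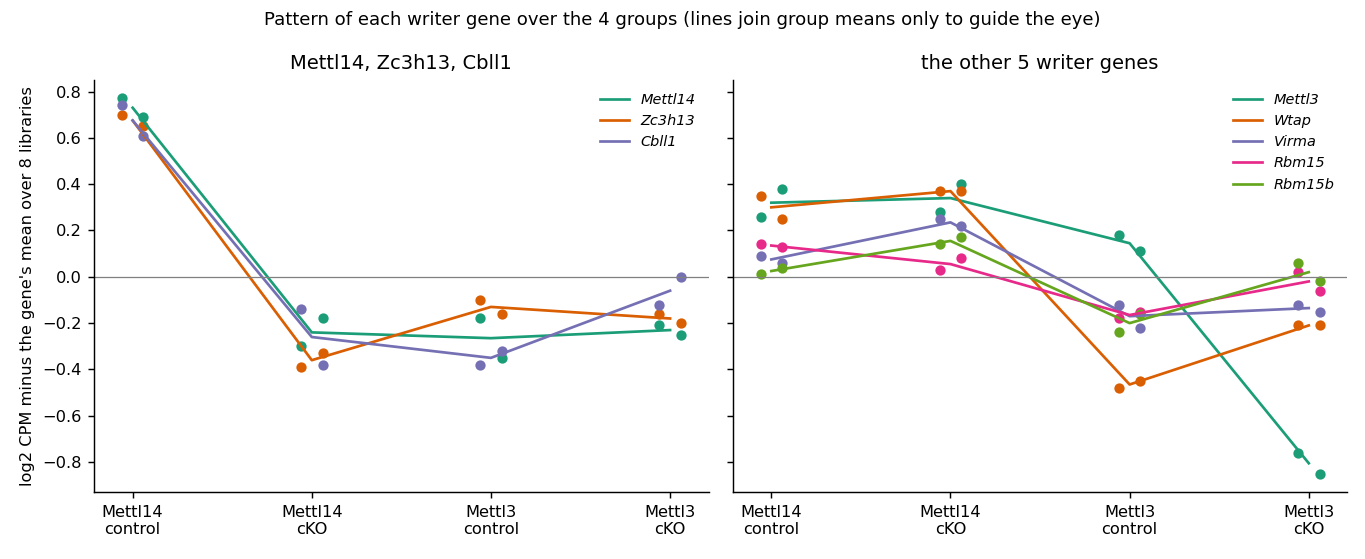
Log2 CPM of each writer gene minus its own mean over the 8 libraries, by group; points are libraries and lines join the group means. Mettl14, Zc3h13 and Cbll1 lie between 0.61 and 0.77 in Mettl14 control and at or below 0 in every other library.

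Wtap (ENSMUSG00000060475.13; chromosome 17, 12966796 to 12994169, minus strand) encodes the adaptor that brings the METTL3 and METTL14 pair to nuclear speckles. In the Mettl14 line it stood at 163 and 152 CPM in control and 164 and 165 CPM in cKO. In the Mettl3 line it stood at 91.1 and 92.8 CPM in control and 110 CPM in both cKO libraries. The Mettl14 line was above the Mettl3 line in every library, and Mettl3 cKO was above Mettl3 control. Wtap rose in Mettl3 cKO to 120% of control (0.26 ± 0.04, adjusted p = 7.99e-08; 0.15 to 0.37 over the 16 alternatives with a test). In Mettl14 cKO it was 0.07 ± 0.04 above control and was not called (interval -0.01 to 0.14, adjusted p = 0.146), though it was called in a fit of that line's own 4 libraries (0.11, adjusted p = 0.00529) and with upper-quartile scaling (0.11, adjusted p = 0.0103) or none (0.27, adjusted p = 1.38e-10).

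Virma (ENSMUSG00000040720.15; chromosome 4, 11485958 to 11550684, plus strand) encodes the large scaffold subunit that in human cells steers methylation towards 3' ends of messages. Control and cKO libraries of the Mettl14 line had 195 and 191 CPM and 218 and 213 CPM. Those of the Mettl3 line had 168 and 157 CPM and 169 and 165 CPM. The Mettl14 cKO libraries were above all others, and the 4 libraries of the Mettl3 line overlapped. Virma rose in Mettl14 cKO to 112% of control (0.16 ± 0.03, adjusted p = 3.29e-05), between 0.13 and 0.36 under the 16 alternatives with a test. In Mettl3 cKO it was at 102% of control (0.03 ± 0.03, interval -0.04 to 0.10, adjusted p = 0.555); without Mettl3 control replicate 1 it was called at 0.11 (adjusted p = 0.0302), and with no filter on low counts at 0.14 (adjusted p = 0.00138).

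Rbm15 and Rbm15b encode paralogous RNA-binding proteins of the SPEN family that recruit the complex to particular RNAs, the long noncoding RNA XIST among them in human cells. Rbm15 (ENSMUSG00000048109.10; chromosome 3, 107325421 to 107333673, minus strand) was at 172 CPM in both control libraries of the Mettl14 line and at 160 and 165 CPM in its cKO. The Mettl3 line had 138 and 141 CPM in control and 159 and 150 CPM in cKO. The Mettl3 control libraries were the lowest, and Mettl14 cKO and Mettl3 cKO did not overlap with their own controls. Rbm15 was at 94.4% of control in Mettl14 cKO (-0.08 ± 0.04, interval -0.15 to -0.01, adjusted p = 0.0566) and was not called there; without Mettl14 cKO replicate 2 it was called at -0.12 (adjusted p = 0.0346), with RLE scaling at -0.11 (adjusted p = 0.00896), and with no scaling beyond the library total it was called in the other direction, at 0.12 (adjusted p = 0.00257). It rose in Mettl3 cKO to 110% of control (0.14 ± 0.04, adjusted p = 0.00146), a call that was lost with DESeq2 (0.12, adjusted p = 0.061), in a fit of the line's own 4 libraries (0.10, adjusted p = 0.0527) and with upper-quartile scaling (0.03, adjusted p = 0.645) or none (0.06, adjusted p = 0.283). Mettl14 cKO exceeded Mettl3 cKO by 0.08, which was not called (interval 0.01 to 0.15, adjusted p = 0.0653). That difference was called, at an adjusted p between 0.0113 and 0.0437, when any library other than replicate 2 of either cKO group was left out: 0.0274 and 0.0403 without Mettl14 control replicates 1 and 2, 0.0393 without Mettl14 cKO replicate 1, 0.0437 and 0.0429 without Mettl3 control replicates 1 and 2 and 0.0113 without Mettl3 cKO replicate 1. It was also called with RLE scaling (0.08, adjusted p = 0.0472) and no filter (0.10, adjusted p = 0.0248), and with no scaling it was called in the other direction (-0.09, adjusted p = 0.0279).

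Rbm15b (ENSMUSG00000074102.4; chromosome 9, 106880918 to 106887428, minus strand) stood at 66.4 and 67.7 CPM in control and 72.8 and 73.9 CPM in cKO of the Mettl14 line. In the Mettl3 line it was at 55.9 and 58.9 CPM in control and 68.8 and 64.9 CPM in cKO. Each knockout was above its own control with no overlap, and Mettl3 control was the lowest group. In Mettl14 cKO it rose to 109% of control (0.13 ± 0.05, adjusted p = 0.0334). That call rested on every library of the line: without Mettl14 control replicate 1 or 2 the adjusted p was 0.256 and 0.0691, and without Mettl14 cKO replicate 1 or 2 it was 0.0655 and 0.235. The call was also lost with DESeq2 (0.10, adjusted p = 0.284), RLE scaling (0.10, adjusted p = 0.114) and no filter on low counts (0.13, adjusted p = 0.0716). The change was -0.02 relative to the median of the 500 genes nearest in GC content and 0.22 relative to that of the 500 nearest in abundance. In Mettl3 cKO Rbm15b rose to 116% of control (0.22 ± 0.05, adjusted p = 0.000439), which was not called with upper-quartile scaling (0.11, adjusted p = 0.139) or none (0.14, adjusted p = 0.0501). Mettl14 control and Mettl3 cKO were not called different (0.00, interval -0.10 to 0.11, adjusted p = 0.947). Rbm15b is a gene of 1 exon that lies within the span of Manf on the same strand and shares 14 exon bases with it, and it shares 75 with Dcaf1 on the opposite strand. Dcaf1 fell in Mettl14 cKO (-0.26 ± 0.03, adjusted p = 4.64e-11), which was not called with no scaling (-0.06, adjusted p = 0.158), and Manf was at 139 and 140 CPM in Mettl14 control and cKO. In Mettl3 cKO Dcaf1 rose, as Rbm15b did (0.15 ± 0.03, adjusted p = 0.000549). That call was lost with upper-quartile scaling (0.03, adjusted p = 0.555) or none (0.06, adjusted p = 0.213). Dcaf1 was also higher in Mettl14 control than in Mettl3 control (0.38 ± 0.03, adjusted p = 1.8e-19). The part of the shared bases in the Rbm15b values was not tested.

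Read against all tested genes, in Mettl14 cKO 2 of the 8 writer genes rose (Virma and Rbm15b) and 3 fell (Mettl14, Zc3h13 and Cbll1), where 18% of all tested genes rose and 22.4% fell, 40.4% in either direction. The median log2 change of the 8 was -0.03, and that of all tested genes was 0.03. The 3 falls lay in the lower tail of the whole table: of 21782 genes, 651 had a lower change than Mettl14, 492 a lower one than Zc3h13 and 706 a lower one than Cbll1. In 7 of 8 writer genes both cKO libraries lay outside both controls, beside 68.1% of all tested genes. With no scaling beyond the library total all 8 were called, 5 of them higher, and the median of all genes shifted by 0.20. At that setting 6775 of all 21782 tested genes rose and 2667 fell. Fibroblast markers moved in the same comparison: 17 of the 20 tested rose, with a median log2 change of 1.10. Of the 10 embryonic stem cell markers 8 fell and 1 rose, with a median of -0.51, and of 12 primitive endoderm markers tested 6 rose, with a median of 0.51. The part of these markers in the changes of writer genes was not tested.

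In Mettl3 cKO 4 writer genes rose (Wtap, Cbll1, Rbm15 and Rbm15b) and Mettl3 fell, where 15.1% of all tested genes rose and 5.78% fell, 20.9% in either direction. The median change of the 8 was 0.09 and that of all tested genes 0.03. The rises were small, between 0.14 and 0.30 on the log2 scale. With upper-quartile scaling 1 of the 4 was still called as a rise, Wtap, and the median of the 8 was -0.02. At that scaling 1293 of all 21782 tested genes rose and 2771 fell. The fall of Mettl3 was exceeded by 1277 of all 21782 genes but by 6 of the 10099 genes whose mean log2 CPM reached 3. In 6 of 8 writer genes both cKO libraries lay outside both controls, beside 56.8% of all tested genes. Of the 20 fibroblast markers tested, 10 rose and 2 fell, with a median change of 0.13, and of the 10 embryonic stem cell markers 1 rose and 4 fell, with a median of -0.08. Of 12 primitive endoderm markers tested 4 rose and 1 fell, with a median of 0.08.

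**Figure D3:**
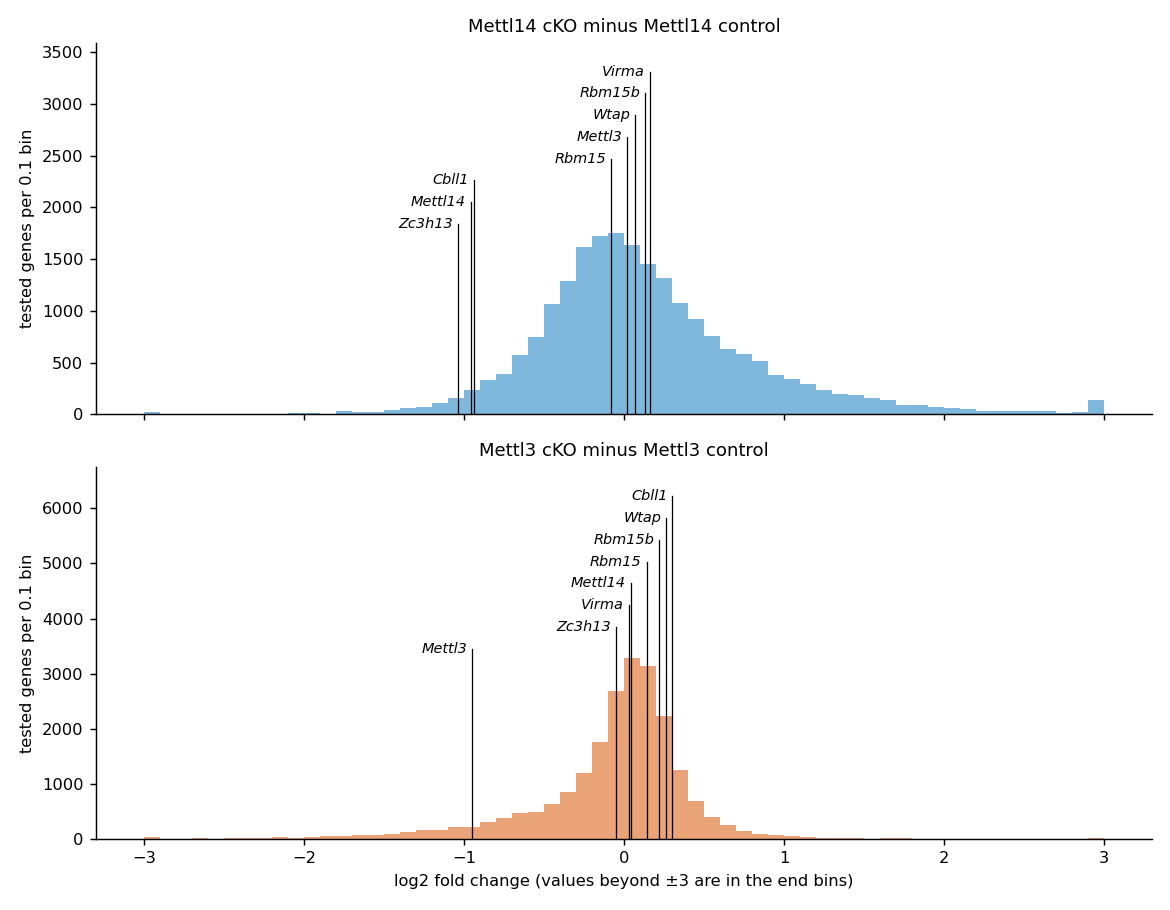
Histograms of the log2 fold change of all 21782 tested genes in each knockout (bins of 0.1, values beyond the axis placed in the end bins), with a vertical line at each writer gene. Mettl14, Zc3h13 and Cbll1 stand in the lower tail in Mettl14 cKO, between -1.04 and -0.94, and Mettl3 at -0.95 in Mettl3 cKO.

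The difference between the knockouts was tested as the Mettl14 change minus the Mettl3 change. It was called in 7 of 8 writer genes, 2 higher and 5 lower, beside 12.7% and 20.5% of all tested genes, 33.2% together. In the same comparison 14 of the 20 fibroblast markers tested were called higher and 1 lower (median 0.88), 1 of the 10 embryonic stem cell markers higher and 6 lower (median -0.37) and 8 of 12 primitive endoderm markers higher (median 0.62), and their part in the writer genes' differences was not tested. Cbll1, which fell in Mettl14 cKO and rose in Mettl3 cKO, differed by -1.23 ± 0.13 (adjusted p = 8.43e-16), and Zc3h13 by -0.99 ± 0.04 (adjusted p = 1.37e-44). The targeted genes differed by -1.0 ± 0.10 for Mettl14 (adjusted p = 2.43e-16) and 0.97 ± 0.10 for Mettl3 (adjusted p = 2.43e-15). Smaller differences were called for Wtap (-0.19 ± 0.06, adjusted p = 0.00281) and Rbm15 (-0.22 ± 0.05, adjusted p = 0.000146), and both were lost with upper-quartile scaling or none. The difference of Virma, 0.13 ± 0.05 (adjusted p = 0.0337), was lost in 10 of 15 alternatives. These were no filter on low counts (0.02, adjusted p = 0.996), DESeq2 (0.12, adjusted p = 0.199), RLE scaling (0.12, adjusted p = 0.0634) and leaving out any library other than Mettl3 control replicate 2, with values from 0.05 to 0.11. The value was 0.05 (adjusted p = 0.504) without Mettl3 control replicate 1. The adjusted p was 0.176 and 0.358 without Mettl14 control replicates 1 and 2, 0.343 and 0.197 without Mettl14 cKO replicates 1 and 2, and 0.118 and 0.36 without Mettl3 cKO replicates 1 and 2. Rbm15b was not called (-0.09 ± 0.07, interval -0.23 to 0.05, adjusted p = 0.359), but it was called lower with no filter (-0.20, adjusted p = 0.0403) and higher with no scaling (0.20, adjusted p = 0.0225).

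**Figure D4:**
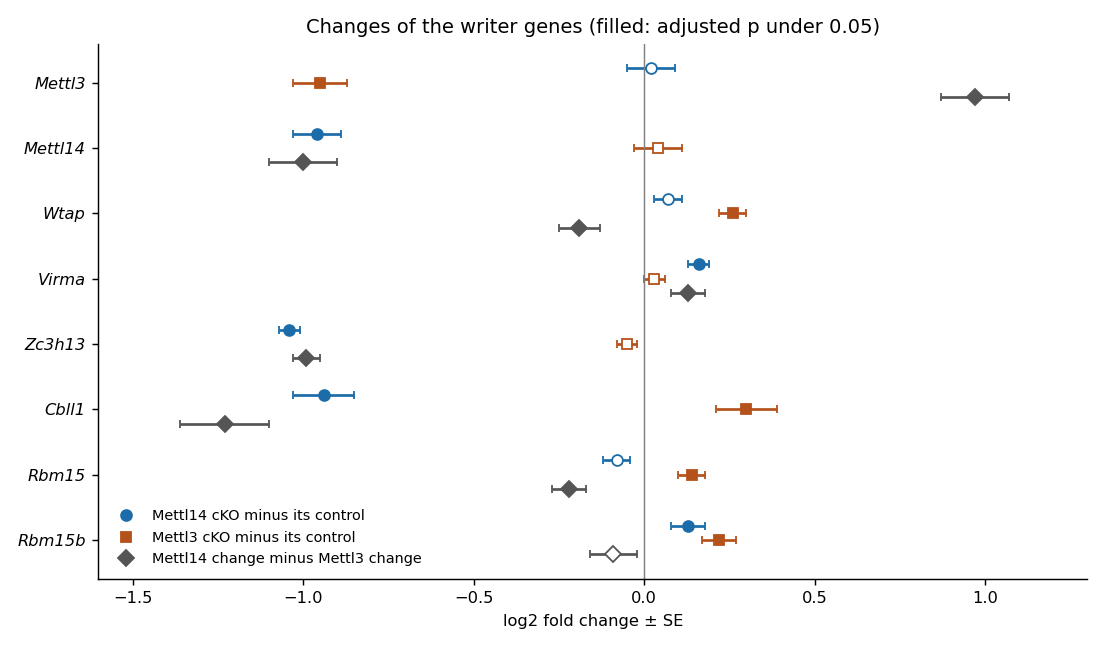
Log2 fold change ± SE of each writer gene in Mettl14 cKO (circles), in Mettl3 cKO (squares) and the difference between the knockouts (diamonds); filled symbols have an adjusted p under 0.05. Zc3h13 and Cbll1 lie near the targeted gene Mettl14 in Mettl14 cKO, at -1.04, -0.94 and -0.96.

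The controls differed from each other as well, and these values share their libraries with the knockout comparisons. All 8 writer genes were higher in Mettl14 control than in Mettl3 control, though 4 of them turned lower with no scaling beyond the library total, and 33.6% of all tested genes were higher and 34.1% lower, 67.8% together. The median difference of the 8 was 0.54 on the log2 scale, against -0.09 for all tested genes. Among the 10099 genes whose mean log2 CPM reached 3, 42.9% had a lower difference than Mettl3. That share was 45.2% for Rbm15b, 46.4% for Virma and 50% for Rbm15. It was 77.1% for Wtap, 78.6% for Zc3h13, 85.9% for Mettl14 and 86.9% for Cbll1. Genes of the other pathway lists were mostly higher in Mettl14 control as well, as given below. Cbll1 (1.03 ± 0.09, adjusted p = 1.05e-21), Mettl14 (0.99 ± 0.07, adjusted p = 1.55e-28), Zc3h13 (0.81 ± 0.03, adjusted p = 7.61e-54) and Wtap (0.77 ± 0.04, adjusted p = 2.13e-39) were called under every alternative. Rbm15 (0.30 ± 0.04), Virma (0.24 ± 0.03), Rbm15b (0.22 ± 0.05) and Mettl3 (0.18 ± 0.07) were the 4 that turned lower with no scaling, which moved the median of all genes by -0.45. Mettl3 also lost its call without Mettl14 control replicate 2 (0.17, adjusted p = 0.089), with DESeq2 (0.20, adjusted p = 0.0676) and with upper-quartile scaling (-0.04, adjusted p = 0.639), and that scaling ended the calls of Virma (0.02, adjusted p = 0.527) and Rbm15b (0.01, adjusted p = 0.92). Of 20 fibroblast markers tested in this comparison 19 were lower in Mettl14 control and 1 higher, with a median of -2.23. Of the 10 embryonic stem cell markers 9 were higher and 1 lower, with a median of 1.22. Of 12 primitive endoderm markers tested 1 was higher and 7 lower, with a median of -1.03. The part of these markers in the differences of writer genes was not tested. Line and anything handled with it cannot be told apart here.

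The order of the group levels was read from all pairs of groups, where 58.2% of all tested genes were called between Mettl14 cKO and Mettl3 control, 53.3% between the cKO groups and 62.8% between Mettl14 control and Mettl3 cKO. Mettl14 was highest in Mettl14 control, and the other 3 groups were not called different from each other. Cbll1 was highest in Mettl14 control too, followed by Mettl3 cKO, Mettl14 cKO and Mettl3 control, and among these the Mettl3 cKO and Mettl3 control groups were called different. Zc3h13 descended from Mettl14 control to the pair of Mettl3 groups, which were not called different, and then to Mettl14 cKO. Mettl3 was level in Mettl14 cKO and Mettl14 control, lower in Mettl3 control and lowest in Mettl3 cKO; Mettl14 cKO exceeded Mettl3 control by 0.20 (adjusted p = 0.00566), which was not called without Mettl14 cKO replicate 2 (0.18, adjusted p = 0.0628), with DESeq2 (0.19, adjusted p = 0.0928), with upper-quartile scaling (0.03, adjusted p = 0.715) or with none (-0.04, adjusted p = 0.565). Wtap descended from the 2 Mettl14 groups to Mettl3 cKO and to Mettl3 control. Virma was highest in Mettl14 cKO, then Mettl14 control, then the 2 Mettl3 groups. Rbm15 had Mettl3 control at the bottom, and above it neighbours in the order Mettl3 cKO, Mettl14 cKO and Mettl14 control were not called different, although Mettl14 control exceeded Mettl3 cKO (0.16, adjusted p = 6.27e-05). With upper-quartile scaling neither that difference (0.05, adjusted p = 0.194) nor that of Mettl14 cKO from Mettl3 control (0.04, adjusted p = 0.29) was called. Rbm15b had its highest mean in Mettl14 cKO, then Mettl14 control and Mettl3 cKO, and its lowest in Mettl3 control. The top place did not hold throughout: over Mettl14 control it rested on every library of the line, as given above, and over Mettl3 cKO (0.13, adjusted p = 0.0173) it was not called without Mettl14 cKO replicate 2 (0.14, adjusted p = 0.0658), without Mettl3 cKO replicate 2 (0.10, adjusted p = 0.201), with DESeq2 (0.14, adjusted p = 0.0957), with upper-quartile scaling (0.07, adjusted p = 0.218) or with none (-0.03, adjusted p = 0.652).

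Likeness of pattern was measured as the root mean square difference of log2 CPM over the 8 libraries after each gene was centred on its mean, among 9445 abundant named genes. It is a description over libraries that share groups and scaling. Nearest to Mettl14 were Denr (0.056), a translation reinitiation factor, and Eif2ak2 (0.058), the kinase PKR that double-stranded RNA activates. Denr stood at 118 ± 1.48 CPM in control and 59.5 ± 0.624 CPM in cKO of the Mettl14 line, and at 57.2 ± 1.34 and 62.3 ± 1.17 CPM in those of the Mettl3 line, so its highest group was Mettl14 control as well. Among the 9445 genes Zc3h13 ranked 38 in likeness to Mettl14 (0.105) and Cbll1 ranked 141 (0.151), where the median over genes was 0.42 and Mettl3 was at rank 6273 (0.503). Nearest to Zc3h13 were Akap8l (0.036) and Nfatc2ip (0.051), and nearest to Cbll1 were Terf2ip (0.079), a telomere protein gene, and Atxn2 (0.089). Among the genes nearest to Mettl3 was Lama1 (0.099), a laminin gene that is also among the primitive endoderm markers. Lama1 was at 105 and 109 CPM in control and cKO of the Mettl14 line and at 90.6 and 54.9 CPM in those of the Mettl3 line. The list as a whole did not move this way: in Mettl3 cKO 4 of the 12 markers tested rose and 1 fell. Wtap was nearest to Dbf4 (0.024) and Peli2 (0.041), Virma to Sec11a (0.023) and Cox7a2 (0.031), Rbm15 to Strn4 (0.028) and Herc1 (0.036), and Rbm15b to Myo9b (0.029) and Stk17b (0.037).

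Levels of different genes were compared per length, as CPM per kilobase of merged exons. In Mettl14 control Zc3h13 was highest at 66.3 ± 1.5, followed by Virma at 27.0 ± 0.444, Wtap at 25.1 ± 1.23, Rbm15 at 23.2 ± 0.0446, Rbm15b at 10.3 ± 0.149, Cbll1 at 8.61 ± 0.542, Mettl3 at 8.27 ± 0.496 and Mettl14 at 7.64 ± 0.316 CPM per kilobase. The regulatory subunit gene Zc3h13 was above the catalytic pair in these libraries, and per kilobase of merged exons it was the highest in all 4 groups. The order depends on the length used. Per kilobase of the longest transcript, Zc3h13 was at 67.7 and Wtap at 49.3 in Mettl14 control, but in Mettl14 cKO Wtap came first at 51.6 and Zc3h13 was at 32.9, level with Virma at 32.8. In the Mettl3 line Zc3h13 was first on that scale too, at 38.7 in control and 37.3 in cKO, with Wtap at 28.8 and 34.6. Mettl3 was at 19.4, 19.7 and 17.1 in Mettl14 control, Mettl14 cKO and Mettl3 control, above Rbm15b, Cbll1 and Mettl14 in each, and at 8.89 in Mettl3 cKO, where Mettl14, at 4.05, was the lowest.

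**Figure D5:**
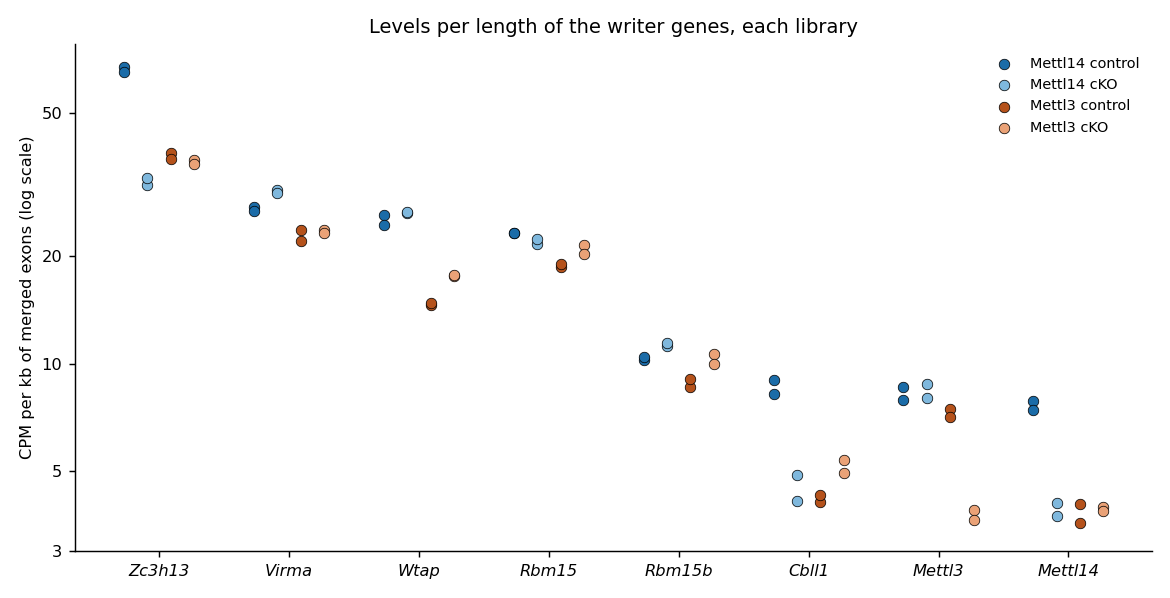
CPM per kilobase of merged exons (log axis) of each writer gene in every library, with colours for the 4 groups. Zc3h13 is the highest gene in each group, from 32.2 to 66.3 as group means, and Mettl14 or Mettl3 the lowest, down to 3.78.

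The balance of the catalytic pair, given as the ratio of Mettl3 to Mettl14 on the per-kilobase scale, was 1.01 and 1.16 in control and 2.14 and 2.15 in cKO of the Mettl14 line. In the Mettl3 line it was 1.84 and 1.97 in control and 0.979 and 0.944 in cKO. It was higher in Mettl14 cKO than in its control and lower in Mettl3 cKO than in its control, with no overlap in either line, and the controls themselves did not overlap. The ratio of Zc3h13 to Mettl14 lay between 8.07 and 10.3 over all libraries, and that of Cbll1 to Mettl14 between 1.01 and 1.39. The ratio of Virma to Zc3h13, the scaffold and the nuclear anchor, was 0.406 and 0.410 in the control libraries of the Mettl14 line and 0.967 and 0.908 in its cKO. The ratio of Rbm15 to Rbm15b was 2.28 and 2.23 in control and 1.93 and 1.96 in cKO of the Mettl14 line, and 2.17 and 2.1 in control and 2.02 in both cKO libraries of the Mettl3 line. These ratios were not tested. A change of length measure multiplies a ratio by the same number in every library. Per kilobase of the longest transcript Mettl3 was above Mettl14 in every group. It was at 19.4 against 7.87 in Mettl14 control and at 8.89 against 4.05 in Mettl3 cKO. The ratios near 1 in these groups, and those below 1 in Mettl3 cKO, thus hold only for merged exon lengths.

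Other genes of the pathway were counted from lists, and small changes of a list depend on the scaling. The background for each count is the share of all tested genes called. In Mettl14 cKO 18% rose and 22.4% fell, and in Mettl3 cKO 15.1% rose and 5.78% fell, with a median of 0.03 in each. With no scaling 6775 of all 21782 tested genes rose and 2667 fell in Mettl14 cKO. With upper-quartile scaling 1293 rose and 2771 fell in Mettl3 cKO. Between the controls 33.6% of all tested genes were higher in Mettl14 control and 34.1% lower, with a median of -0.09. Mettl14 control was also above Mettl3 control for 14 of 14 m6A readers and demethylases (median 0.54). So it was for 4 of 6 other methyltransferases (0.54), 14 of 15 S-adenosylmethionine genes (0.41) and 4 of 4 SPEN group genes (0.39). With no scaling these counts were 7, 3, 5 and 0, beside 4019 of all 21782 tested genes higher and 12028 lower. The part of this difference in the counts below was not tested. Of 6 other RNA m6A methyltransferases and their partners, 0 rose and 3 fell in Mettl14 cKO (median -0.15), among them Mettl5, the 18S ribosomal RNA methyltransferase, from 35.4 ± 0.0544 to 19.1 ± 2.56 CPM (-0.89 ± 0.09, adjusted p = 5.91e-17), and Mettl16, which methylates U6 small nuclear RNA (-0.20 ± 0.04, adjusted p = 2.11e-06). With no scaling beyond the library total Mettl16 was at 0.01, and 1 of the 6 rose and 1 fell. In Mettl3 cKO edgeR called 0 of these 6 (median 0.09), with 1 at an unadjusted p under 0.05 and 0 called by DESeq2 or limma-voom.

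Of 14 m6A readers and demethylases, 10 fell in Mettl14 cKO (median -0.45), where 22.4% of all tested genes fell. In Mettl3 cKO 7 rose and 2 fell (median 0.09; 5 rose and 5 fell with upper-quartile scaling), beside 15.1% and 5.78% of all tested genes. The difference between the knockouts was called lower for 12 (median -0.44), beside 20.5% of all tested genes, whose median was 0.02. Prrc2a, an m6A reader gene, went from 255 to 106 CPM in Mettl14 cKO (-1.26 ± 0.04, adjusted p = 6.08e-67) and from 236 to 279 in Mettl3 cKO (0.24 ± 0.03, adjusted p = 1.56e-10). Ythdc1, the nuclear reader gene, fell from 257 to 148 CPM in Mettl14 cKO (-0.79 ± 0.03, adjusted p = 2.15e-46). Alkbh5, a demethylase gene, rose from 53.1 to 71.9 CPM in Mettl3 cKO (0.44 ± 0.05, adjusted p = 8.28e-12).

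Of 15 genes that supply and recycle S-adenosylmethionine, the methyl donor of the reaction, 2 rose and 8 fell in Mettl14 cKO (median -0.16), beside 18% and 22.4% of all tested genes, which turned to 7 and 2 of the list with no scaling, and 5 rose and 2 fell in Mettl3 cKO (median 0.08), beside 15.1% and 5.78%, which turned to 1 and 4 of the list with upper-quartile scaling. Shmt1, a serine hydroxymethyltransferase gene, fell in Mettl14 cKO (-0.40 ± 0.05, adjusted p = 5.99e-12), and Mthfd1, a folate enzyme gene, fell in Mettl3 cKO (-0.21 ± 0.03, adjusted p = 1.14e-09). Of the 4 genes of SPEN, the large relative of RBM15, and its corepressors, 3 fell in Mettl14 cKO (median -0.43), beside 22.4% of all tested genes, and 3 rose in Mettl3 cKO (median 0.19; 1 rose and 1 fell with upper-quartile scaling), beside 15.1%. Spen went from 543 to 368 CPM in Mettl14 cKO (-0.56 ± 0.03, adjusted p = 6.44e-41) and from 416 to 463 in Mettl3 cKO (0.16 ± 0.03, adjusted p = 1.49e-06), the second of which was not called with upper-quartile scaling (0.04, adjusted p = 0.274).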

How the data were processed

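Nuclear RNA of 8 samples was purified with Trizol, depleted with RiboMinus and sequenced after the SMARTer Stranded Total RNA-Seq kit, per the labels' protocols. The authors deposited unnormalized read counts for each gene, in a table for each sample, made with CASAVA, Trimmomatic 0.38, HISAT2 2.1.0 and HTSeq on mm10, per the submitters' processing notes; the sources used here name neither the annotation release nor the strand setting. Groups and replicate numbers came from the sample titles. Of 54446 gene IDs, 54409 matched GENCODE M21, which gave symbols and coordinates, and 37 did not; 0 lines named no gene.

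edgeR 4.0.16 in R 4.3.3 was run with filterByExpr at a minimum count of 10, TMM scaling and the robust quasi-likelihood test, in 1 fit of 8 libraries with 4 residual degrees of freedom. P-values were adjusted by Benjamini-Hochberg over all 21782 tested genes, and a gene was called under 0.05; intervals are 95%. The steps were tested on simulated data. Replicates of a group had log2 CPM correlated at 0.9892 to 0.9904 across genes, with count differences above sampling noise (chi-square per degree of freedom 1.43 to 2.06). Upstream sequences were from RefSeq, matched by symbol. The 8 genes, the marker lists and the 4 other pathway lists were chosen with earlier results of these data known. Genes named were all 8 members, genes of at least 1 CPM that overlap them, up to 2 called genes per list with the smallest p and the 2 nearest in pattern; Col1a1 was chosen after its values were seen. A few genes that this rule names are not reported here. DESeq2 1.42.0 and limma-voom (limma 3.58.1), other scalings, no filter, a fit per line, a replicate block, leaving out each library, GC content, abundance and transcript length were the alternatives.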

Additional observations from a re-analysis of the deposited data

Results flagged for a closer look

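The change of 7 writer genes differed between the knockouts by the interaction test, given here as the Mettl14 change minus the Mettl3 change on the log2 scale. These are differences of changes, not of levels. The difference was positive for Mettl3, at 0.97, and for Virma, at 0.13, the last of which lost its call in 10 of 15 alternatives. It was negative for Cbll1 at -1.23, Mettl14 at -1.0, Zc3h13 at -0.99, Rbm15 at -0.22 and Wtap at -0.19, and the calls of Rbm15 and Wtap were lost with upper-quartile scaling (-0.07 and -0.04) and with no scaling (0.07 and 0.10). Among all tested genes 33.2% were called in this comparison. Mettl3 and Mettl14 were the targeted genes. Groups of 2 libraries are too small for a check of single samples that stand apart.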

How the results depend on the processing

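Over the alternatives, 769 of 856 values of the 56 comparisons of writer genes kept their call or lack of it. Of the rest, 43 lost the call, 27 gained it and 17 reversed. For the other named genes these were 628 of 650, 8, 7 and 7. A value called in neither setting counted as kept even when its sign changed. Cbll1 in Mettl14 cKO minus Mettl3 control, 0.09 as reported and -0.15 with no scaling, is an example. In Mettl14 cKO the falls of Mettl14, Zc3h13 and Cbll1 and the rise of Virma kept direction in all alternatives. The fall of Mettl3 and rise of Wtap in Mettl3 cKO did so too. Each of these kept its call in every alternative with a test. Mettl3 in Mettl3 cKO was at -1.04 after the median of 500 genes of like abundance was taken off.

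Writer genes called were 8 in Mettl14 cKO with no scaling beyond the library total (5 as reported). Of all 21782 tested genes, 6775 rose and 2667 fell there (3921 and 4880 as reported). Between the controls 5 writer genes were called with upper-quartile scaling (8 as reported). Of all tested genes 5642 were higher and 9450 lower there (7329 and 7430 as reported). In Mettl3 cKO 3 writer genes were called with DESeq2, with upper-quartile scaling and with no scaling (5 as reported). Of all tested genes 1624 rose and 542 fell there with DESeq2 (3292 and 1260 as reported). These were 1293 and 2771 with upper-quartile scaling, and 1657 and 2299 with no scaling. DESeq2 called 4714 genes for the difference (7238 with edgeR) and 2166 in Mettl3 cKO (4552 with edgeR); the cause was not tested.

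With no scaling beyond the library total, values reversed. Sign changes of values called in neither setting are left out of this paragraph. Between the controls these were Mettl3 -0.27, Virma -0.21, Rbm15 -0.15, Rbm15b -0.23, Dcaf1 -0.07, Manf -0.08, Ncor1 -0.01 and Spen -0.07. Mettl14 cKO minus Mettl3 control gave Mettl14 -0.22, Mettl3 -0.04 and Rbm15 -0.03, and minus Mettl3 cKO gave Rbm15 -0.09 and Rbm15b -0.03. Mettl14 control minus Mettl3 cKO gave Virma -0.16, Rbm15 -0.21 and Rbm15b -0.36. The difference between the knockouts gave Wtap 0.10, Rbm15 0.07, Rbm15b 0.20 and Mettl16 0.02, and Mettl14 cKO gave Rbm15 0.12 and Mettl16 0.01. Upper-quartile scaling reversed Mettl3 between the controls (-0.04), no filter reversed Tox4 there (0.14), and comparison with 500 genes of similar GC content reversed Rbm15b in Mettl14 cKO (-0.02).

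No scaling shifted the median of all genes by 0.20 in Mettl14 cKO, -0.08 in Mettl3 cKO, 0.29 for the difference and -0.45 between the controls, and upper-quartile scaling by 0.04, -0.11, 0.16 and -0.22. In the same order, the share of calls that were higher was 44.6%, 72.3%, 38.4% and 49.7% as reported, 71.8%, 41.9%, 77.5% and 25% with no scaling, 50.5%, 31.8%, 60.6% and 37.4% with upper-quartile scaling, 43.9%, 91.2%, 26% and 53.5% with no filter and 37.1%, 75%, 26.3% and 55.4% with DESeq2.

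With each library left out in turn, Mettl14 in Mettl14 cKO ranged from -1.04 to -0.90 and Mettl3 in Mettl3 cKO from -0.96 to -0.86. Writer genes called ranged from 4 to 5 in Mettl14 cKO, 4 to 6 in Mettl3 cKO, 6 to 7 for the difference and 7 to 8 between the controls, and all genes called from 7292 to 8985, 3968 to 5329, 6416 to 6927 and 13320 to 15541. Leaving out 1 library assumes that the lone sample of its group varies like the other groups.

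Whether replicate numbers pair the samples could not be decided, since 2 replicates give a single deviation per gene and group. Deviations of same-numbered samples correlated at -0.03 in the Mettl14 line and 0.07 in the Mettl3 line. Over all pairs of groups the correlation lay between -0.03 and 0.11. With a replicate block, Mettl14 in its knockout was -0.96 and Mettl3 -0.95, writer genes called stayed at 5, 5, 7 and 8, and all genes called were 8835, 4620, 7275 and 14754. Depth was at least 320 counts for each writer gene in every library.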
